A study of Danio rerio with 50 samples.

Results

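The genes described here encode the translation initiation and elongation factors of the zebrafish (Danio rerio), with their binding proteins and modifying enzymes. A gene was included when its current symbol began with eif or eef and a digit, older symbols having been mapped to current ones, and the eif2ak kinase genes were left out. The array carried 67 such genes on 82 probes. Of these, 66 genes on 80 probes had a value on at least 3 arrays in each of the 8 groups and were tested, among 9164 named genes and 22046 probes tested in all. The remaining gene, eif2b3, and a further probe of eif4g1a did not reach that number of arrays. There were 51 genes of initiation and its regulators and 15 of elongation, and 13 of the genes had more than 1 tested probe. The symbol rule uses no measured value.

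Male zebrafish lived in water with 0.5, 5 or 50 µg/L estradiol for 24 or 96 h, and untreated males were taken at the same times. Liver RNA of each fish sample, labelled with Cy5, was hybridised beside a Cy3-labelled reference pooled from wild-type livers of both sexes, and all values below are log2 ratios of the fish sample to that pool or differences between such ratios. Untreated males gave 8 arrays at 24 h and 7 at 96 h. Each dose had 6 arrays at 24 h, and the 96 h exposures had 6 (lowest dose), 4 (middle) and 7 (highest). The labels give no strain, age or genotype for the exposed and untreated males, and leave unsaid how fish were housed. Each p-value therefore speaks of the scatter among these arrays, which may be partly technical.

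Initiation factors bring the small ribosomal subunit, the initiator tRNA and a capped mRNA together, and elongation factors then carry aminoacyl-tRNA to the ribosome and move it along the message. The factor eIF2 delivers the initiator tRNA and is recharged with GTP by eIF2B, while eIF4E binds the cap and is held back by the eIF4E binding proteins. In egg-laying vertebrates estradiol turns the liver to the synthesis of yolk proteins, which are secreted in large amounts. The roles named below are those known from yeast and mammals, given as background.

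Each array gave values for 17483 to 22746 of 23232 probes and had a correlation of 0.592 to 0.951 across probes with its group's other arrays averaged. On 5 arrays under 60% of Cy5 spots exceeded background: replicates 3, 4 and 5 of 50 µg/L at 24 h and replicates 3 and 4 of 50 µg/L at 96 h. Scanner brightness was read for the 35 treated arrays and not for the controls. Of the spots of the 66 genes on treated arrays 91.8% lay above background, against 80.7% of all spots, and 33 of the genes were above background on every treated array. All 11 tested hepatocyte markers were above background on most treated arrays. So were all 6 ovary, 5 exocrine pancreas and 4 muscle markers, so being above background does not check the tissue label. Averaged over the 11 hepatocyte markers, 24 h controls ran from 2.13 to 3.23 and arrays of 50 µg/L for 24 h from 0.42 to 1.97. The 96 h controls ran from 2.26 to 3.15 and arrays of 50 µg/L for 96 h from 0.84 to 1.66. Of the 11, 7 fell at 50 µg/L at 24 h, where 5.7% of all probes were lower, and 8 at 96 h, where 8.78% were. At 5 µg/L for 96 h 8 fell and 1 rose, where 5.48% of all probes were lower and 7.12% higher. Of 5 exocrine pancreas markers 3 rose at 50 µg/L at 96 h, where 9.19% of all probes were higher, and none at 24 h, where 7.09% were. In untreated males 3 of the 5 were lower at 96 than at 24 h, where 1.02% of all probes passed in either direction. Averaged over the 5, 96 h controls ranged from -3.20 to -0.17, 50 µg/L at 96 h from -0.59 to -0.06, and 24 h controls from -1.24 to 0.50. Replicate 2 of 0.5 µg/L at 24 h stood apart: it had the lowest correlation with its group, 0.592, where the next lowest of any array was 0.814, and its mean over 6 ovary markers was 0.923, against -3.66 to -1.683 on the other 49 arrays. Counts of changed genes that use its group, and some single-gene values, are also given without it, a setting added after the data were seen. In bulk tissue, fewer cells of a type and less RNA per cell cannot be told apart, and the part of these shifts in the results below was not tested.

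The factor genes were higher in estradiol-exposed males far more often than lower. A change here means an adjusted p under 0.05 (limma, Benjamini-Hochberg over all 22046 probes) against the controls of the same time. At 24 h none of the 66 genes changed with 0.5 µg/L (4 had an unadjusted p under 0.05), where 0.209% of all probes were higher and 0.295% lower. Without the array that stood apart none changed either (6 unadjusted), where 0.181% of probes were higher and 0.136% lower. With 5 µg/L for 24 h 18 genes rose and none fell, where 2.93% of all probes were higher and 3.15% lower. With 50 µg/L for 24 h 26 rose and 1 fell, where 7.09% of probes were higher and 5.7% lower. At 96 h 12 rose and none fell with 0.5 µg/L, against 2% and 1.25% of probes. With 5 µg/L for 96 h 20 rose and 2 fell, against 7.12% and 5.48% of probes. With 50 µg/L for 96 h 28 rose and 1 fell, which is 42.4% and 1.52% of the genes, against 9.19% and 8.78% of probes. Named genes alone were higher in 13.3% and lower in 8.14% in this last comparison.

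**Figure D1:**
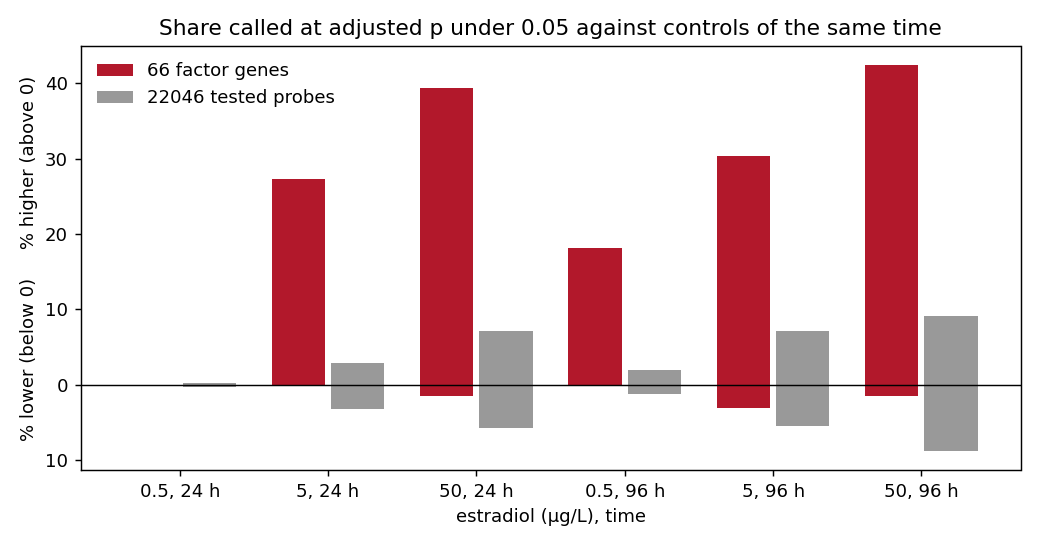
Share of the 66 factor genes (red) and of the 22046 tested probes (grey) that were higher (above 0) or lower (below 0) than controls of the same time at an adjusted p under 0.05, in percent, for each estradiol dose in µg/L and time. The red bars reach 39.4% at 50 µg/L for 24 h and 42.4% for 96 h, and no factor gene passed at 0.5 µg/L for 24 h.

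With rising dose, the median difference over the 66 genes was 0.00, 0.32 and 0.39 after 24 h of exposure and 0.21, 0.36 and 0.40 after 96 h, while the median over all probes lay between -0.02 and 0.03. The 3 doses of a time share their controls. Among arrays with a value, every array of 50 µg/L lay above every control for 15 of the genes at 24 h and for 17 at 96 h. This held for 3.16% and 3.12% of all probes. The 17 include eif2s3, which did not pass there, and eif3ha and eif4ebp3, which lack a value on some treated arrays. Leaving out the low-signal arrays, a setting added after the data were seen, 22 genes rose at 50 µg/L at 24 h, all among the 26, and 22 at 96 h, all among the 28. In these fits the median over the 66 genes was 0.39 at 24 h and 0.30 at 96 h, against -0.04 and 0.02 over all probes. At 5 µg/L for 24 h 11 genes rose without replicate 1 of that group, and at 0.5 µg/L for 96 h 7 rose without replicate 2 of the 96 h controls. The share of all probes that passed was not counted in these fits or in those without the low-signal arrays.

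Over the 6 estradiol comparisons 34 of the 66 genes rose in at least 1, where 13.8% of all probes did. In at least 1 comparison 3 genes fell (eif4a1b, eif4e3 and eif4ebp2), where 12.3% of probes did. A further 29 genes did not pass in any, and none rose in one and fell in another. These counts rest on representative probes. At 50 µg/L for 96 h other probes of eif4a1a and eef2b fell, and another of eif4g2b, among the 29, rose. The genes eif2s2, eif4bb, eif4g1a, eif4ebp1, eif4ebp3, eif6 and eif5a2 rose in all comparisons but that of 0.5 µg/L for 24 h, and 0.812% of all probes were higher in exactly 5 of the 6. With eif2b1 and eif3ha, 9 genes rose with both 5 and 50 µg/L at both times, where 1.64% of probes did.

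**Figure D2:**
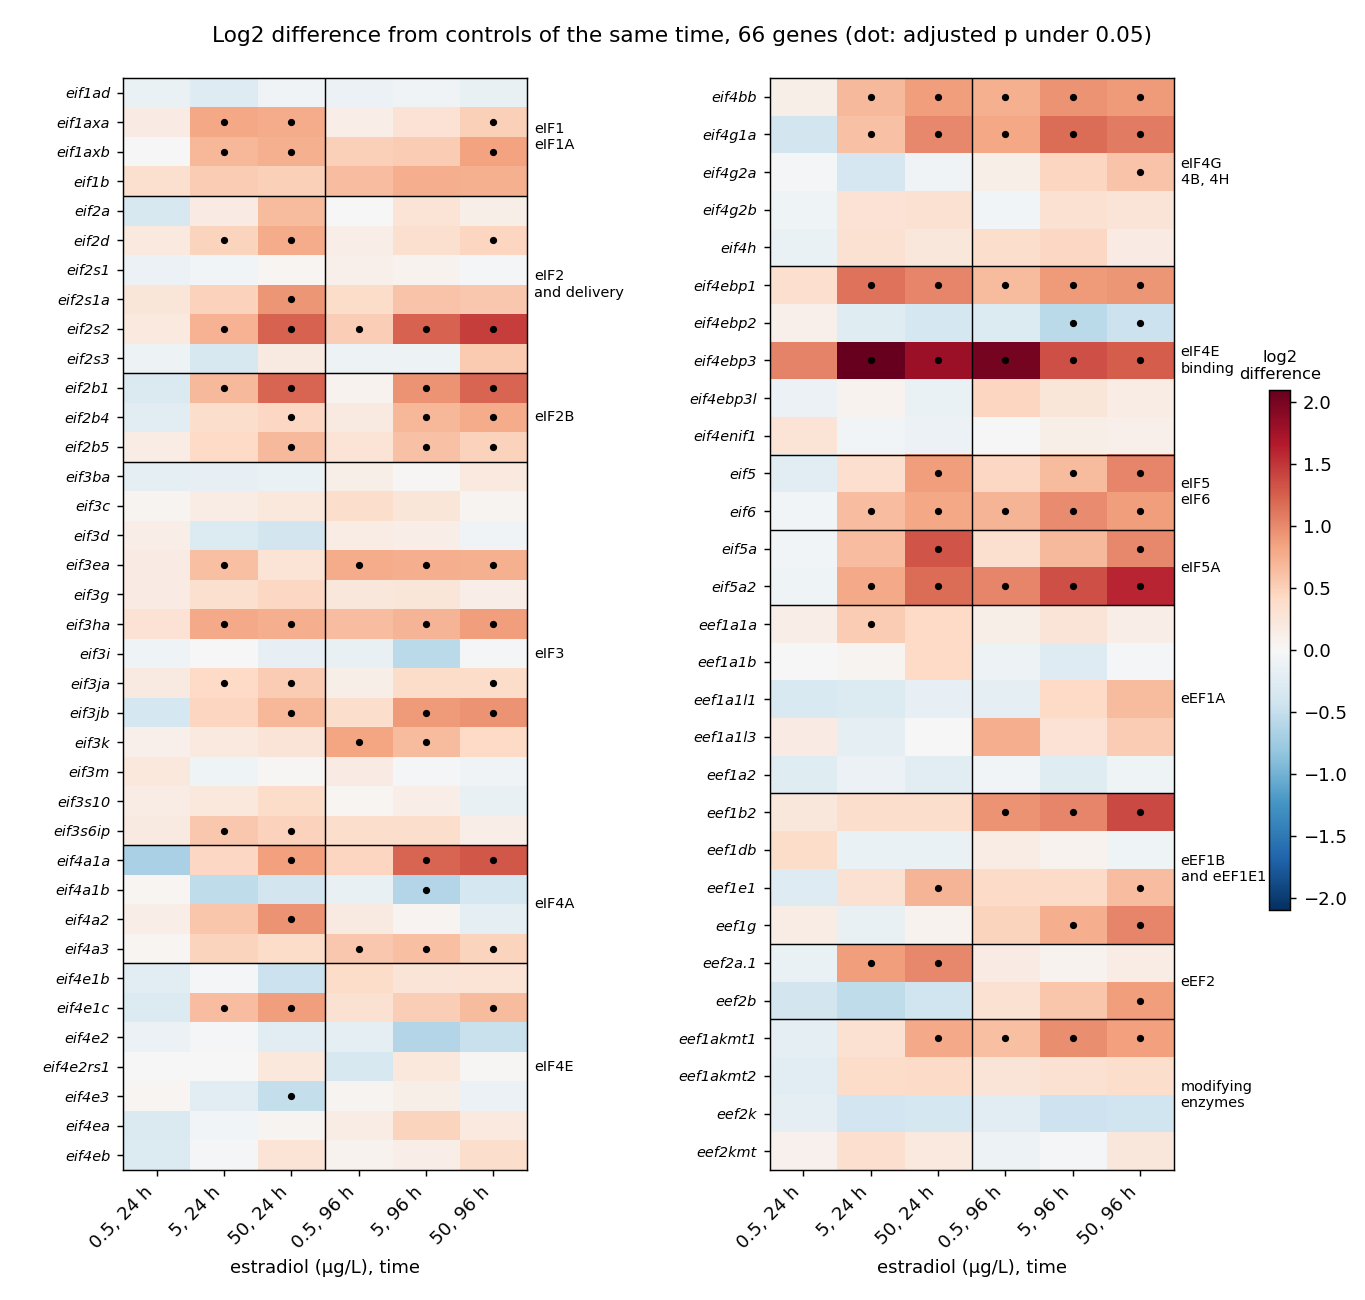
Log2 difference from controls of the same time for the representative probe of each of the 66 genes (rows, by role) in the 6 estradiol comparisons (columns, dose in µg/L and time); red is higher, blue lower, and a dot marks an adjusted p under 0.05. Most dots lie on red cells, and the 5 eEF1A genes have 1 dot, at 5 µg/L for 24 h.

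The gene of the beta subunit of eIF2, eif2s2, had the smallest p of the 66 at 50 µg/L for 24 h. On 24 h arrays its ratio ran from -0.34 to 0.50 (median 0.29) in controls, from -0.04 to 0.68 (median 0.47) with 0.5 µg/L, from 0.42 to 1.42 (median 1.04) with 5 µg/L and from 1.17 to 1.86 (median 1.47) with 50 µg/L. Every array of 50 µg/L thus lay above every control, while the 0.5 µg/L arrays overlapped the controls. On 96 h arrays it ran from -0.10 to 0.65 (median 0.13) in controls, from 0.31 to 1.01 (median 0.69) with 0.5 µg/L and from 1.33 to 1.84 (median 1.60) with 50 µg/L, and the 4 arrays of 5 µg/L read 1.57, 1.11, 1.60 and 1.36. Both higher doses were clear of the controls at 96 h, and 0.5 µg/L overlapped them. The difference from controls was 0.20 ± 0.15 (SE, adjusted p = 0.687), 0.74 ± 0.15 (adjusted p = 0.000525) and 1.24 ± 0.15 (adjusted p = 6.58e-09) at 24 h with rising dose, and 0.52 ± 0.15 (adjusted p = 0.0451), 1.24 ± 0.17 (adjusted p = 3.1e-07) and 1.45 ± 0.15 (adjusted p = 4.57e-11) at 96 h. The last is a 2.73-fold rise. The call at 0.5 µg/L for 96 h ended in 10 of 13 fits that each left out 1 array, all but those without control replicate 7 or 0.5 µg/L replicates 2 and 5, with an adjusted p of up to 0.146.

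Among the other genes of initiator tRNA delivery, eif2s1a, a gene of the alpha subunit, rose at 50 µg/L for 24 h by 0.93 ± 0.21 (adjusted p = 0.00126) and measured 0.57 ± 0.21 at 96 h (adjusted p = 0.0522). The gene eif2d, whose product can place tRNA on the ribosome without GTP, rose at 50 µg/L by 0.77 at 24 h and 0.46 at 96 h, the latter not without replicate 4 of that group (adjusted p = 0.0715) or without the low-signal arrays (adjusted p = 0.169). The probe annotated eif2s1, a symbol that is a synonym of more than 1 gene, and that of eif2s3, the gamma subunit, did not pass in any of the 6 comparisons. Of the 6 genes in this group 3 rose at 50 µg/L for 24 h, where 7.09% of all probes were higher, and 2 for 96 h, where 9.19% were.

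All 3 tested genes of eIF2B, the exchange factor that recharges eIF2, rose at 50 µg/L at both times and at 5 µg/L for 96 h. Of all probes, 4.27% were higher at 50 µg/L at both times and 7.12% at 5 µg/L for 96 h. The alpha subunit gene eif2b1 ran from -0.33 to 1.06 (median -0.09) in 24 h controls, from -0.36 to 0.08 (median -0.23) with 0.5 µg/L, from 0.38 to 1.08 (median 0.79) with 5 µg/L and from 1.13 to 1.76 (median 1.21) with 50 µg/L. It ran from -0.53 to 0.65 (median -0.12) in 96 h controls, from -0.27 to 0.19 (median 0.04) with 0.5 µg/L and from 0.80 to 1.70 (median 1.02) with 50 µg/L, and the 4 arrays of 5 µg/L read 1.04, 0.77, 1.09 and 0.57. At 0.5 µg/L it overlapped the controls at both times and lay within their range at 96 h, and at 50 µg/L it lay above every control. Its rise at 50 µg/L was 1.22 ± 0.17 at 24 h (adjusted p = 2.85e-07) and 1.22 ± 0.17 at 96 h (adjusted p = 1.53e-07). The second eIF2B gene, eif2b4, ran from -0.19 to 0.13 (median -0.04) in 96 h controls and from 0.18 to 1.35 (median 0.73) at 50 µg/L, without overlap. It rose by 0.79 ± 0.13 there, and its other probe by 1.06. Its smaller rise at 24 h, 0.44 ± 0.13 (adjusted p = 0.015), did not pass without 50 µg/L replicate 3 (adjusted p = 0.054) or without the low-signal arrays (adjusted p = 0.201). The epsilon subunit gene eif2b5 rose at 50 µg/L by 0.67 at 24 h and 0.49 at 96 h, and its other probe by 0.56 and 0.51. At 5 µg/L for 96 h it did not pass without replicate 2 of that group (adjusted p = 0.147).

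**Figure D3:**
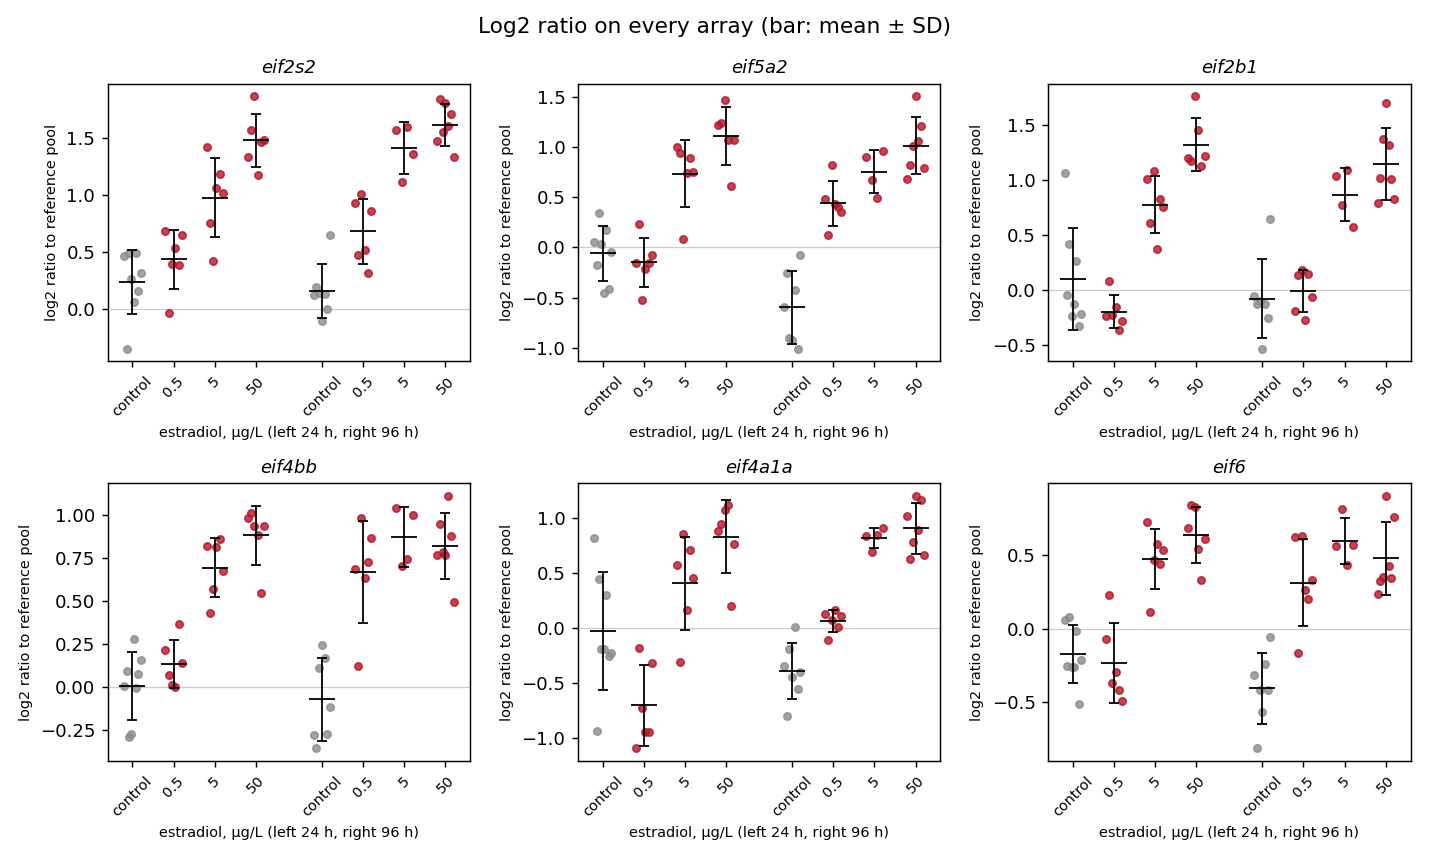
Log2 ratio to the reference pool on every array for 6 genes, by estradiol dose (x axis, µg/L; controls grey, exposed red; 24 h left, 96 h right), with the mean ± SD as bars. For eif2s2, eif2b1 and eif4bb every array at 50 µg/L lies above every control of its time, and for eif2b1 the 0.5 µg/L arrays overlap the controls at both times.

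The eIF1 and eIF1A genes open the scanning complex and help select the start codon. Both eIF1A genes rose at 5 and 50 µg/L at 24 h and at 50 µg/L for 96 h: eif1axb by 0.70, 0.74 and 0.85, and eif1axa by 0.82, 0.77 and 0.49. Of all probes 2.93%, 7.09% and 9.19% were higher in these comparisons. The last value of eif1axa (adjusted p = 0.0395) did not pass in 7 of 14 fits that left out 1 array, those without 96 h control replicates 2, 3, 4 and 6 and without 50 µg/L replicates 3, 4 and 5 (adjusted p up to 0.114), nor without the low-signal arrays (adjusted p = 0.291). Its spot lay above background on 22 of the 35 treated arrays. Of eif1b and eif1ad, neither passed in any comparison.

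The genes of eIF3, the large scaffold that joins the small subunit to the cap complex, were higher in part. Of 13 tested, 4 rose at 50 µg/L for 24 h, where 7.09% of all probes were higher, and 4 for 96 h, where 9.19% were. None fell, where 5.7% and 8.78% of all probes were lower, and the median over the 13 was 0.29 and 0.15. With only 13 genes, none falling is near those shares. At 96 h the 4 were eif3ea, eif3ha, eif3ja and eif3jb, with rises of 0.75, 0.88, 0.38 and 0.94. That of eif3ja did not pass without 96 h control replicate 4, without 50 µg/L replicate 5 or without the low-signal arrays (adjusted p up to 0.0544). The gene eif3ha rose at 5 and 50 µg/L at both times, and its spot was above background on 29 of 35 treated arrays. Its 96 h arrays ran from -0.26 to 0.50 (median 0.18) in 6 controls with a value and from 0.79 to 1.38 (median 1.02) on the 4 arrays of 50 µg/L with a value. Those groups did not overlap, but 3 of 7 treated arrays gave no value. Its rise at 50 µg/L for 24 h, 0.77 ± 0.21, did not pass without replicate 2 of that group (adjusted p = 0.0761). Its rise at 5 µg/L for 96 h, 0.72 ± 0.22, did not pass without 96 h control replicate 6 or without 5 µg/L replicates 1, 3 or 4 (adjusted p up to 0.0655). The gene eif3k rose at 0.5 µg/L for 96 h by 0.83 ± 0.19 (adjusted p = 0.00551). The genes eif3ba, eif3c, eif3d, eif3g, eif3i, eif3m and eif3s10 did not pass in any of the 6 comparisons, with values between -0.56 and 0.43.

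The cap-binding complex joins the helicase eIF4A, the cap-binding protein eIF4E and the scaffold eIF4G, and eIF4B stimulates the helicase. The eIF4B gene eif4bb rose in every comparison but 0.5 µg/L for 24 h. It ran from -0.29 to 0.28 (median 0.04) in 24 h controls, from 0.00 to 0.37 (median 0.11) with 0.5 µg/L, from 0.43 to 0.86 (median 0.74) with 5 µg/L and from 0.55 to 1.01 (median 0.94) with 50 µg/L. It ran from -0.36 to 0.24 (median -0.12) in 96 h controls, from 0.13 to 0.98 (median 0.71) with 0.5 µg/L and from 0.50 to 1.11 (median 0.78) with 50 µg/L, and the 4 arrays of 5 µg/L read 1.04, 0.70, 0.75 and 1.00. At 96 h only 0.5 µg/L overlapped the controls. Its differences at 96 h were 0.74 ± 0.13 (adjusted p = 0.000105), 0.94 ± 0.14 (adjusted p = 2.6e-06) and 0.89 ± 0.12 (adjusted p = 1.6e-07) with rising dose.

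The eIF4G gene eif4g1a ran from -1.40 to 0.20 (median -0.32) in 96 h controls, from 0.12 to 0.89 (median 0.44) with 0.5 µg/L and from 0.35 to 1.14 (median 0.75) with 50 µg/L, and the 4 arrays of 5 µg/L read 0.74, 0.80, 0.95 and 0.93. The treated arrays of 5 and 50 µg/L lay above all controls. It rose at 50 µg/L by 1.01 ± 0.18 at 24 h (adjusted p = 4.41e-05) and 1.097 ± 0.18 at 96 h (adjusted p = 6.69e-06). Its other tested probe rose at 96 h by 0.68 (adjusted p = 0.0452) and measured 0.59 at 24 h (adjusted p = 0.123). The rise at 5 µg/L for 24 h, 0.61 ± 0.18 (adjusted p = 0.0299), did not pass in 7 of 14 fits that left out 1 array, those without 24 h control replicates 2, 4, 6 and 7 and without 5 µg/L replicates 1, 5 and 6 (adjusted p up to 0.095). For eif4g2b, a gene of a divergent member of the eIF4G family, the probes disagreed at 50 µg/L for 96 h: the representative probe measured 0.27 (adjusted p = 0.307) and the other rose by 0.40 (adjusted p = 0.0447).

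The eIF4A genes differed among themselves. The representative probe of eif4a1a ran from -0.80 to 0.01 (median -0.40) in 96 h controls, from -0.11 to 0.16 (median 0.09) with 0.5 µg/L and from 0.63 to 1.20 (median 0.89) with 50 µg/L, and the 4 arrays of 5 µg/L read 0.84, 0.69, 0.85 and 0.91. At 24 h it ran from -0.94 to 0.82 (median -0.19) in controls, from -1.10 to -0.19 (median -0.84) with 0.5 µg/L, from -0.31 to 0.86 (median 0.52) with 5 µg/L and from 0.20 to 1.12 (median 0.91) with 50 µg/L. With the highest dose it thus lay clear of the controls at 96 h and overlapped them at 24 h. This probe rose at 50 µg/L by 0.86 ± 0.19 at 24 h and 1.30 ± 0.18 at 96 h (adjusted p = 2.77e-07), but the other probe of eif4a1a fell at 96 h by 0.71 (adjusted p = 0.0241), and the mean of both measured 0.29 (adjusted p = 0.231). The direction for this gene is therefore uncertain. The paralog eif4a1b fell at 5 µg/L for 96 h by 0.62 ± 0.21 (adjusted p = 0.0415), and its other probe by 0.65 (adjusted p = 0.0279). Its 4 arrays of 5 µg/L read 0.12, -0.80, -0.40 and -0.06, against -0.12 to 0.87 (median 0.34) in 96 h controls, and 2 of the 4 lay within the control range. That call ended in 6 of 11 fits that left out 1 array, those without 96 h control replicates 4, 5, 6 and 7 and without 5 µg/L replicates 2 and 3 (adjusted p up to 0.238). It also ended with quantile normalization (adjusted p = 0.0816), with the controls of both times pooled (adjusted p = 0.065) and with the arrays of the comparison alone (adjusted p = 0.12). The gene eif4a2 rose at 50 µg/L for 24 h by 0.94 ± 0.22, though not without the low-signal arrays (adjusted p = 0.0603), and measured -0.21 at 96 h.

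Of 7 genes of the eIF4E group, eif4e1c rose at 50 µg/L at both times, by 0.88 ± 0.18 and 0.66 ± 0.17, the latter not without the low-signal arrays (adjusted p = 0.0881). At 50 µg/L 4.27% of all probes were higher at both times, and 5.7% were lower at 24 h. The gene eif4e3 ran from 0.02 to 0.65 (median 0.24) in 24 h controls, from -0.10 to 0.67 (median 0.33) with 0.5 µg/L, from -0.23 to 0.34 (median 0.03) with 5 µg/L and from -0.39 to 0.03 (median -0.27) with 50 µg/L. It fell at 50 µg/L for 24 h by 0.50 ± 0.13 (adjusted p = 0.00538), with a slight overlap with the controls, and its other probe measured -0.37 (adjusted p = 0.107). Without the low-signal arrays, which are 3 of the 6 in that group, the value was -0.45 (adjusted p = 0.0905). At 96 h eif4e3 measured -0.13 at 50 µg/L (adjusted p = 0.544). The genes eif4ea, eif4eb, eif4e1b, eif4e2 and eif4e2rs1 did not pass in any comparison. The spot of eif4e1b was not well above background on any array of 50 µg/L at 96 h.

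The eIF4E binding proteins hold eIF4E away from eIF4G until they are phosphorylated. Of 5 genes in this group, eif4ebp1 and eif4ebp3 rose, eif4ebp2 fell, at 96 h alone, and the others passed in no comparison. Of all probes 13.8% were higher and 12.3% lower in at least 1 of the 6 comparisons. A single falling gene among 5 is near that share. The gene eif4ebp3 had the largest difference of all 66 at 24 h. Its ratio ran from -0.27 to 1.85 (median 1.54) in 24 h controls, from 1.83 to 3.03 (median 2.36) with 0.5 µg/L, from 2.66 to 4.21 (median 3.22) with 5 µg/L and from 2.17 to 3.54 (median 3.28) with 50 µg/L. It ran from 0.67 to 1.81 (median 1.61) in 96 h controls, from 2.24 to 4.42 (median 3.44) with 0.5 µg/L and from 2.33 to 3.01 (median 2.59) on the 6 arrays of 50 µg/L with a value, and the 4 arrays of 5 µg/L read 4.19, 1.90, 1.96 and 2.87. Every treated array lay above every control of its time except at 0.5 µg/L for 24 h, where the lowest fell just below the highest control. It rose by 2.098 ± 0.31 at 5 µg/L for 24 h, a 4.28-fold change, and for 96 h by 2.01 ± 0.32, 1.36 ± 0.36 and 1.27 ± 0.32 with rising dose. Among the 24 h controls, replicate 1 read -0.27 and the next lowest 1.12. The 5 µg/L value at 96 h did not pass without replicate 1 of that group (adjusted p = 0.129). Here the largest 96 h difference was thus that of the lowest dose, and the doses share their controls.

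The gene eif4ebp1 ran from -0.04 to 0.45 (median 0.17) in 96 h controls, from 0.66 to 1.08 (median 0.81) with 0.5 µg/L and from 0.69 to 1.44 (median 1.13) with 50 µg/L, and the 4 arrays of 5 µg/L read 1.34, 0.92, 0.93 and 1.15. No treated array of the 96 h doses overlapped the controls. It rose at 50 µg/L by 1.02 ± 0.17 at 24 h (adjusted p = 1.19e-05) and 0.92 ± 0.17 at 96 h (adjusted p = 4.37e-05). At 0.5 µg/L for 96 h it rose by 0.66 ± 0.18, and this did not pass without 96 h control replicate 6 or 0.5 µg/L replicates 4 or 5 (adjusted p up to 0.0664). Its spot lay above background on 20 of the 35 treated arrays, and on 1 of the 4 of 5 µg/L at 96 h. The paralog eif4ebp2 fell at 96 h, by 0.57 ± 0.18 with the middle dose (adjusted p = 0.0239) and 0.45 ± 0.15 with the highest (adjusted p = 0.0314). It ran from -0.99 to 0.24 (median -0.24) in 96 h controls, from -0.84 to -0.36 (median -0.53) with 0.5 µg/L and from -0.88 to -0.58 (median -0.69) with 50 µg/L, and the 4 arrays of 5 µg/L read -0.81, -0.91, -1.01 and -0.64. The lowest control, at -0.99, lay below all 7 arrays of 50 µg/L. The call at 50 µg/L ended in 5 of 14 fits that left out 1 array, those without 96 h control replicates 3, 5 and 7 and without 50 µg/L replicates 4 and 5 (adjusted p up to 0.0908). It ended too without the low-signal arrays (adjusted p = 0.0727), with the arrays of the comparison alone (adjusted p = 0.0738) and with pooled controls (adjusted p = 0.0545), and since eif4ebp2 was the gene that fell there, none was then lower. That at 5 µg/L ended without 96 h control replicate 7 or 5 µg/L replicates 2 or 3 (adjusted p up to 0.0932), and with the arrays of the comparison alone (adjusted p = 0.105). The other probe of eif4ebp2 fell at 50 µg/L for 96 h by 0.69 (adjusted p = 0.0173). The genes eif4ebp3l and eif4enif1 did not pass in any of the 6 comparisons.

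**Figure D4:**
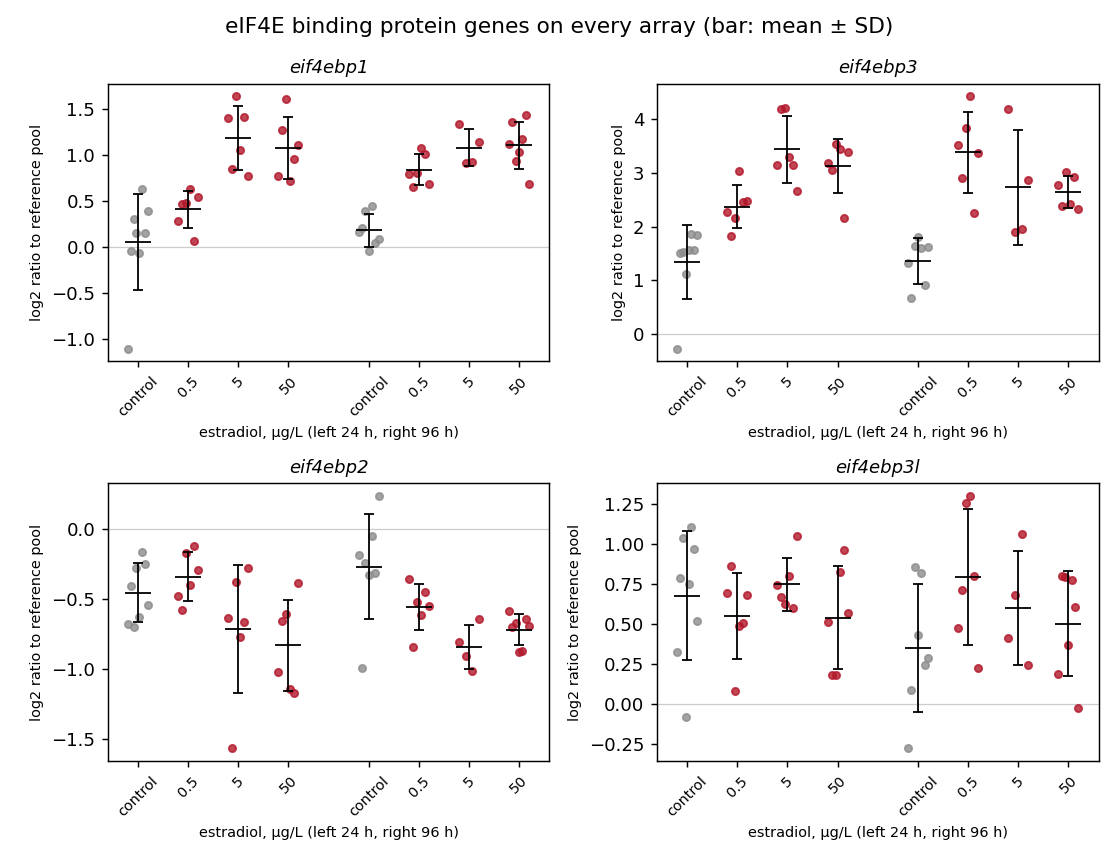
Log2 ratio to the reference pool on every array for 4 eIF4E binding protein genes, by estradiol dose (x axis, µg/L; controls grey, exposed red; 24 h left, 96 h right), with the mean ± SD as bars. At 50 µg/L eif4ebp1 and eif4ebp3 lie above their controls, eif4ebp2 lies low, and eif4ebp3l overlaps its controls.

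The genes of eIF5, which triggers GTP hydrolysis on eIF2, and eIF6, which keeps the large subunit from joining too early, both rose at 50 µg/L at both times. Of all probes 4.27% did. The gene eif6 ran from -0.51 to 0.08 (median -0.23) in 24 h controls, from -0.49 to 0.23 (median -0.33) with 0.5 µg/L, from 0.11 to 0.72 (median 0.50) with 5 µg/L and from 0.33 to 0.83 (median 0.65) with 50 µg/L. It ran from -0.81 to -0.06 (median -0.42) in 96 h controls, from -0.17 to 0.63 (median 0.30) with 0.5 µg/L and from 0.23 to 0.90 (median 0.35) with 50 µg/L, and the 4 arrays of 5 µg/L read 0.56, 0.81, 0.43 and 0.56. The 5 and 50 µg/L arrays lay above all controls at both times. Its differences at 96 h were 0.72 ± 0.14, 1.00 ± 0.16 and 0.88 ± 0.13 with rising dose (adjusted p = 0.000781, 4.88e-06 and 1.41e-06). The gene eif5 rose at 50 µg/L by 0.88 ± 0.16 at 24 h and 1.03 ± 0.16 at 96 h, where its arrays ran from 0.70 to 1.29 against -0.80 to 0.38 in controls.

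Both genes of eIF5A, the hypusine-bearing factor that helps the ribosome through difficult peptide bonds, rose at 50 µg/L at both times. Of all probes 4.27% did. The representative probe of eif5a2 ran from -0.45 to 0.35 (median -0.01) in 24 h controls, from -0.52 to 0.24 (median -0.15) with 0.5 µg/L, from 0.09 to 1.00 (median 0.82) with 5 µg/L and from 0.61 to 1.47 (median 1.14) with 50 µg/L. It ran from -1.01 to -0.07 (median -0.59) in 96 h controls, from 0.13 to 0.82 (median 0.42) with 0.5 µg/L and from 0.68 to 1.50 (median 1.01) with 50 µg/L, and the 4 arrays of 5 µg/L read 0.90, 0.67, 0.49 and 0.96. At 96 h every treated array of every dose lay above every control. Its difference at 50 µg/L for 96 h was the largest of the 66 genes, 1.60 ± 0.16 (adjusted p = 1.91e-11), a 3.04-fold rise. The other probe of eif5a2 measured 0.17 in that comparison (adjusted p = 0.664), so the rise rests on 1 of 2 probes. The gene eif5a rose at 50 µg/L by 1.32 ± 0.23 at 24 h and 1.00 ± 0.23 at 96 h, where its arrays ran from 1.18 to 2.27 against 0.23 to 0.96 in controls.

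Among the 15 elongation genes 3 rose at 50 µg/L for 24 h, where 7.09% of all probes were higher, and 5 for 96 h, where 9.19% were. By representative probe none fell in any of the 6 comparisons, where 12.3% of probes were lower in at least 1. With only 15 genes, none falling is not far from that share. The 5 that rose at 96 h include eef2b, whose probes disagree, and eef1e1, which rose at both times. The exchange complex that recharges eEF1A was represented by eef1b2, eef1g and eef1db. The gene eef1e1 was placed beside them by its symbol alone. The gene eef1b2 ran from -0.07 to 0.78 (median 0.24) in 96 h controls, from 0.75 to 1.79 (median 1.24) with 0.5 µg/L and from 0.74 to 2.55 (median 1.63) with 50 µg/L, and the 4 arrays of 5 µg/L read 0.71, 1.05, 1.55 and 1.84. Each dose overlapped the highest control slightly. It rose at 50 µg/L for 96 h by 1.38 ± 0.23 (adjusted p = 1.03e-05) and measured 0.37 at 24 h. Its rise at 0.5 µg/L for 96 h, 0.94 ± 0.24, did not pass without 96 h control replicate 2 or 0.5 µg/L replicate 5 (adjusted p up to 0.067), and that at 5 µg/L, 1.02 ± 0.27, not without 5 µg/L replicate 4 (adjusted p = 0.0618). The gene eef1g rose at 50 µg/L for 96 h by 1.03 ± 0.21 (adjusted p = 0.000191), with its spot saturated on 1 of those 7 arrays, and eef1db, the delta subunit gene, did not pass in any comparison. None of the 5 genes of eEF1A, which carries aminoacyl-tRNA to the ribosome, passed at 50 µg/L. Of all probes 7.09% were higher and 5.7% lower there at 24 h, and 9.19% and 8.78% at 96 h. With only 5 genes, none passing is near those shares. The gene eef1a1a rose at 5 µg/L for 24 h, where 2.93% of probes were higher. The spot of eef1a1l1 was saturated in Cy5 on 32 of 35 treated arrays, including all 7 at 50 µg/L for 96 h, so its level there is only a bound, and its measured difference was 0.66 ± 0.25 (adjusted p = 0.0594).

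For eEF2, which moves the ribosome along the mRNA, eef2a.1 rose at 24 h, by 0.88 ± 0.23 with the middle dose and 1.00 ± 0.23 with the highest (adjusted p = 0.00163). On 24 h arrays it ran from -0.65 to 0.13 (median -0.33) in controls and from -0.01 to 1.15 (median 0.73) at 50 µg/L, with some overlap. At 5 µg/L it did not pass without replicate 2 of that group (adjusted p = 0.077). It measured 0.15 with 50 µg/L for 96 h. The representative probe of eef2b rose at 50 µg/L for 96 h by 0.88 ± 0.24 (adjusted p = 0.00538), while its other probes measured -0.55 (adjusted p = 0.0723) and -0.43 (adjusted p = 0.0407), so its direction is uncertain. The representative spot was saturated on 10 of the 35 treated arrays, none of them at 50 µg/L. Of the modifying enzymes, eef1akmt1, a lysine methyltransferase of eEF1A, rose at 50 µg/L by 0.80 ± 0.17 and 0.86 ± 0.16 at 24 and 96 h. The spot of eef1akmt1 lay above background on 25 of the 35 treated arrays. The genes eef1akmt2, eef2kmt and eef2k, the kinase that inhibits eEF2, did not pass in any of the 6 comparisons.

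The 24 h and 96 h effects of each dose were compared through the difference between them. The difference between the 96 h and the 24 h effect of 0.5 µg/L passed for 4 of the 66 genes, all higher at 96 h, where 0.699% of all probes passed in that direction. For eif5a2 the effect was -0.09 at 24 h and 1.03 at 96 h, a difference of 1.12 ± 0.23 (adjusted p = 0.00359). Its mean in controls was -0.059 at 24 h and -0.595 at 96 h, and with 0.5 µg/L -0.146 and 0.438. For eif4g1a the difference was 1.19 ± 0.26 (adjusted p = 0.0103), for the representative probe of eif4a1a 1.13 ± 0.27 (adjusted p = 0.0199) and for eif6 0.78 ± 0.19 (adjusted p = 0.0362). That of eif4a1a did not pass without replicate 1 of 0.5 µg/L at 24 h (adjusted p = 0.0515), and that of eif6 did not pass in 14 of 27 fits that left out 1 array of any of the 4 groups (adjusted p up to 0.0895). Without the array that stood apart the same 4 genes passed, where 0.916% of probes did, with differences of 1.20 for eif5a2, 1.29 for eif4g1a, 1.23 for eif4a1a and 0.87 for eif6 (adjusted p = 0.00149, 0.00358, 0.00681 and 0.00844). At 5 µg/L none of the 66 passed in limma's test of the time difference (10 at an unadjusted p under 0.05), where 1.27% of probes did in either direction. At 50 µg/L none passed (9 unadjusted), where 0.195% of probes did. Between untreated males at 96 and 24 h none passed (10 unadjusted), where 1.02% of probes did, and eif5a2 had the smallest p at -0.54 ± 0.15 (adjusted p = 0.0682).

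At 50 µg/L the differences at 24 and 96 h, which rest on separate controls, had the same sign in 53 of the 66 genes, which is 80.3%, against 68.5% of all probes, and correlated across these genes at Pearson's r of 0.668 and Spearman's rho of 0.635. The points share the fit, the array design and the reference pool, and genes are not independent replicates. Of the 66, 22 rose at both times, where 4.27% of probes did. A rise passed at 24 h alone for 4 (eif2s1a, eif3s6ip, eif4a2 and eef2a.1), against 2.83% of probes, and at 96 h alone for 6 (eif3ea, eif4a3, eif4g2a, eef1b2, eef1g and eef2b), against 4.92%. The call of eif3s6ip ended in 9 of 14 fits that left out 1 array (adjusted p up to 0.124) and that of eif4a3 in 5 of 14 (adjusted p up to 0.159). For none of these 10 did the time difference itself pass. The smallest adjusted p of that difference was 0.0934, for eef2b at 1.30 ± 0.34.

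**Figure D5:**
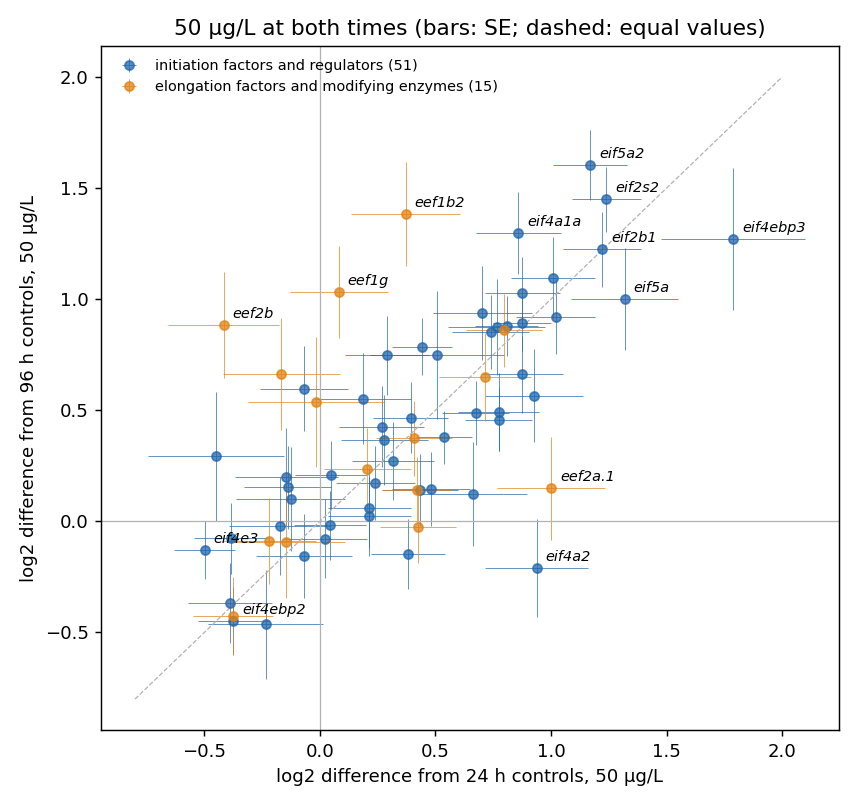
Log2 difference of 50 µg/L from controls at 24 h (x axis) and at 96 h (y axis) for the 66 genes, with bars of 1 SE; blue marks initiation genes, orange elongation genes, and the dashed line equal values. Most genes lie in the upper right, and eef1b2, eef1g and eef2b lie above the line while eef2a.1 and eif4a2 lie below it.

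Comparing the doses directly, from scanner brightness on treated arrays alone, 20 of the 66 genes were higher and 2 lower at 50 than at 0.5 µg/L at 24 h, where 5.83% of all probes were higher and 3.76% lower. The largest of these differences was that of eif2b1, at 1.51 ± 0.15 (adjusted p = 5.05e-09), and eif2s2 differed by 1.04 ± 0.18 (adjusted p = 7.08e-05). The 2 lower genes were eif4e3 at -0.59 and eif3d at -0.58, and neither passed without the low-signal arrays (adjusted p = 0.133 and 0.184), nor eif3d without replicate 1, 4 or 6 of 0.5 µg/L (adjusted p up to 0.0636). Without the array that stood apart 23 genes were higher and 4 lower at 24 h, all 22 counted above among them, where 6.27% of probes were higher and 5.12% lower, and the further lower genes were eif4a1b at -0.64 and eif4ebp2 at -0.58. In that fit eif2b1 differed by 1.57 and eif2s2 by 0.94 (adjusted p = 5.31e-09 and 0.00029). The values of eif4e3 and eif3d were both -0.66 there (adjusted p = 0.00275 and 0.00785). At 96 h 5 genes were higher and none lower. Of all probes 2.32% were higher, and of named genes 3.73% were higher and 2.73% lower. The 5 were eif2b1 by 1.20 ± 0.15 (adjusted p = 7.53e-07), eif2s2 by 0.90 ± 0.17, the representative probe of eif4a1a by 0.82 ± 0.18, eif2b4 by 0.64 ± 0.15 and eif5 by 0.60 ± 0.17. The calls of eif2b4 and eif5 ended without the low-signal arrays (adjusted p = 0.0575 and 0.0733), and that of eif5 also in 8 of 13 fits that left out 1 array (adjusted p up to 0.128). For eif4ebp3 the 50 µg/L value at 96 h was 1.07 ± 0.39 below that of 0.5 µg/L, which did not pass (adjusted p = 0.126).

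Of 49 genes of the same pathway outside the symbol rule, chosen for known function, 35 were tested. With 50 µg/L 12 rose and 2 fell at 24 h, where 7.09% of all probes were higher and 5.7% lower, and 12 rose and 2 fell at 96 h, where 9.19% were higher and 8.78% lower. At 96 h abce1, the ribosome recycling factor, rose by 1.21, etf1b, a release factor gene, by 1.25, and rheb, the GTPase that activates the kinase mTOR, by 1.46. The gene mcts1, which with denr acts in reinitiation, rose by 1.06, and denr by 0.63. Of 6 tested stress response genes downstream of eIF2 phosphorylation, 1 rose at 24 h, atf4a by 0.82, and 4 rose at 96 h: atf4a by 1.62, atf3 by 1.21, trib3 by 0.86 and atf4b by 0.56. The others measured -0.38 (asns, an amino acid synthesis gene) and 0.65 (chac1) at 96 h. For none of the 35 pathway genes did the time difference at 50 µg/L pass, where 0.195% of all probes did. The counts of 50 µg/L at 24 and 96 h therefore do not show a difference between the times. At 0.5 µg/L 2 pathway genes passed, both higher at 96 h, where 0.699% of all probes passed in that direction. At 5 µg/L 2 passed, both higher, where 1.27% did in either direction, among them atf3 by 1.82 ± 0.44 (limma, adjusted p = 0.0195). In untreated males 1 of the 35 was lower at 96 than at 24 h, where 1.02% of probes passed in either direction. Between untreated males at 96 and 24 h, atf4a, atf3, trib3 and atf4b measured -0.45, -0.74, -0.79 and -0.12 (limma, adjusted p = 0.352, 0.213, 0.134 and 0.853). The phosphatase subunit gene ppp1r15a, whose product helps reverse eIF2 phosphorylation, fell at 24 h by 0.88 and measured -0.06 at 96 h. The haem-regulated eIF2 kinase gene eif2ak1 rose at 24 h by 0.66 and measured 0.35 at 96 h. Of the genes whose products hypusinate eIF5A, dhps rose at 24 h by 0.73 and measured 0.35 at 96 h, and dohh measured -0.04 and -0.06. Of the eIF4E kinase genes, mknk2a measured -0.68 at 24 h (adjusted p = 0.0862) and fell at 96 h by 1.22, while mknk2b fell at 24 h by 1.15 and measured 0.12 at 96 h. The kinase gene mtor measured -0.11 and 0.01.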

How the data were processed

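The groups came from the titles. Some descriptions disagree with their titles on the exposure time by 1 h, and the middle dose at 96 h is described as having 6 replicates, of which 4 were analysed. The authors deposited normalized log2 ratios of Cy5 (fish) over Cy3 (pool). How they normalized is not given in the sources used here. Spot and background intensity, and the percent of spot pixels above background (over 50% counted as above background), came from scanner files the authors deposited for treated arrays. The ratios equalled the scanner files' value column and correlated with raw Cy5 over Cy3 at r of 0.915 to 0.989, which set their direction. All arrays had 1 dye orientation.

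Each array was centred on its median. Group means over all 50 arrays were fitted with limma 3.58.1 (lmFit, eBayes) in R 4.3.3 (data.table, version 1.17.8; plots with matplotlib 3.10.9 in Python 3.11.15), with Benjamini-Hochberg adjustment over 22046 probes. The dose comparison used normexp (offset 50) and loess. The fit was tested on simulated data. Symbols were updated with RefSeq gene names (GRCz12tu assembly), and no positions were used. The probe with the highest mean Cy3 brightness represents a gene. Values are differences ± SE. The members and lists were chosen with earlier results of these data known. Named are eif2s2, the genes of smallest p in each comparison and role, all that fell, and those whose probes disagree; arrays of eif4ebp1, eif4ebp3, eif4g1a, eif5, eif5a, eif2b4, eef1b2, eef2a.1 and eif3ha, and the pathway genes named were added after their values were seen. Of the other marker lists, none of the erythrocyte, ovary, muscle, intestine and macrophage and neutrophil markers changed at 50 µg/L, 1 testis marker rose, and 2 bile duct (24 h) and 1 endothelial marker (96 h) fell. Replicate numbers were not used to pair the samples in the main fit.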

Additional observations from a re-analysis of the deposited data

Results flagged for a closer look

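Of 72 sets of arrays examined, each 1 gene in 1 group, 4 had 1 array far from the rest. Chance gives such a gap in about 1 set in 20. The sets covered eif2s2, eif2b1, eif4a1a, eif4a1b, eif4e3, eif4bb, eif4ebp2, eif6 and eif5a2. The genes whose arrays were added after their values were seen were not screened. Replicate 7 of the 96 h controls read 0.649 for eif2s2, where the next highest control was 0.197. The same array read 0.645 for eif2b1, against -0.049. Replicate 5 of 50 µg/L at 24 h, a low-signal array, read 0.546 for eif4bb, against 0.884 for the next lowest. Replicate 3 of 5 µg/L at 24 h read 0.085 for eif5a2, against 0.739. Some genes that were not screened also had 1 control far below the others. Replicate 1 of the 24 h controls read -0.268 for eif4ebp3, against 1.12 for the next lowest, and -1.099 for eif4ebp1, against -0.061. Replicate 2 of the 96 h controls read -1.402 for eif4g1a, against -0.398, and -0.798 for eif5, against -0.082.

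The effect of 0.5 µg/L differed between 24 and 96 h for 4 genes by limma's test of the difference itself. The 96 h effect was higher by 1.12 for eif5a2, by 1.19 for eif4g1a, by 1.13 for eif4a1a and by 0.78 for eif6.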

How the results depend on the processing

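No called gene turned direction under the alternatives tried, none of which replaced a representative probe by another probe of its gene. The direction of genes that were not called was not followed. For eif4a1a and eef2b, other probes went the other way at 50 µg/L for 96 h, as given above. The 139 gene results were read under several alternative settings each, which gave 3180 values. Of these, 2935 kept the direction and the side of the threshold and 245 no longer passed. A single fit gives values for many genes, so the 3180 values are not independent. Fewer calls held under every setting and every left-out array. Against controls these were 8 of 18 at 5 µg/L and 20 of 27 at 50 µg/L for 24 h. At 96 h they were 5 of 12, 8 of 22 and 19 of 29 with rising dose. For 50 against 0.5 µg/L 16 of 22 held at 24 h and 3 of 5 at 96 h. For the time difference at 0.5 µg/L 2 of 4 held. For the counts that follow, the share of all probes that passed in the same fit was counted only without the array that stood apart. With array weights the count of changed genes became 1 at 0.5 µg/L for 24 h, 8 for the time difference at 0.5 µg/L, 4 for that at 50 µg/L and 1 between controls. The number of falls depended on the setting. With array weights 32 genes rose and 2 fell at 50 µg/L for 24 h, and 29 and 3 for 96 h. With the controls of both times pooled, 25 rose and 2 fell at 5 µg/L for 24 h, and 31 and 5 at 50 µg/L. At 96 h pooled controls gave 21 and 1 at 5 µg/L, and 30 and 0 at 50 µg/L. With the arrays of the comparison alone it was 11 at 5 µg/L for 24 h, and without the low-signal arrays 3 for 50 against 0.5 µg/L at 96 h. Leaving out each array in turn gave 0 to 1 genes at 0.5 µg/L, 11 to 21 at 5 µg/L and 24 to 29 at 50 µg/L for 24 h. At 96 h it gave 7 to 13, 16 to 23 and 25 to 30. The time differences gave 3 to 5 genes at 0.5 µg/L, 0 at 5 µg/L and 0 to 1 at 50 µg/L, the controls 0 to 1, and 50 against 0.5 µg/L 19 to 27 at 24 h and 4 to 6 at 96 h. Correlations between deviations of same-numbered replicates ran from -0.291 to 0.438, and in no comparison did every pair exceed 0.1. Single pairs may still share variation. With the replicate number as a block the counts were 0, 16 and 26 at 24 h and 11, 20 and 29 at 96 h with rising dose. At 5 µg/L for 96 h the 20 were all higher, since eif4a1b and eif4ebp2 then missed the threshold (adjusted p = 0.1 and 0.065). The block gave 3, 0 and 0 for the time differences, 0 for the controls, and 21 and 5 for 50 against 0.5 µg/L. Dim spots, saturated spots and the unread brightness of the control arrays limit what the values can show.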
